A study of Mus musculus with 5 samples.

Results

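The cells described here are 3T3-L1 cells collected 3 days after induction that were not dividing and that still carried little mRNA for Fabp4, the fatty acid carrier of adipocytes. They numbered 3320, of which 1930 came from the untreated day 3 library and 1390 from the day 3 library with P-G3, among 16713 cells kept from 21895 barcodes in 5 libraries. A cell was a member when it had at least 500 detected genes, at most 20% of its UMIs (unique molecular identifiers, 1 for each captured mRNA) from mitochondrially encoded genes and at least 10000 UMIs in all. It also had fewer than 2000 CPM (counts per 1000000 of the cell's UMIs) summed over 10 genes of the late cell cycle (Mki67, Top2a, Cdk1, Ccnb1, Ccnb2, Birc5, Ube2c, Cenpf, Nusap1 and Tpx2) and fewer than 3000 CPM of Fabp4. The members were thus chosen by their Fabp4 and cell cycle values in these same libraries.

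3T3-L1 is a clonal line of mouse embryo fibroblasts that can turn into adipocytes. Confluent cultures received dexamethasone, insulin and isobutylmethylxanthine, followed by medium with insulin alone, and the treated cultures also received P-G3, a polycationic polymer, at 10 µg/mL from day 0 on. The libraries are D0 untreated, D3 untreated, D3 P-G3, D6 untreated and D6 P-G3, all from trypsinised cells of this 1 line, with 1 library each. No difference given here therefore has a replicate check and no test was made, and intervals are 95% intervals that cover counting error only. P-G3 and anything else that differed between the 2 day 3 libraries cannot be told apart.

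Preadipocytes are fibroblast-like cells that secrete a collagen-rich matrix. On induction, glucocorticoid and cAMP signals raise the transcription factors C/EBPβ and C/EBPδ, which in turn switch on PPARγ and C/EBPα, and these drive the genes of lipid storage, Fabp4 among them. In culture the cells do not pass through this programme in step, so that cells early and late in it stand side by side in 1 dish.

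Each library held between 3247 and 5719 barcodes and between 92556168 and 179449285 UMIs. Pairs of libraries shared 4 to 7 cell barcodes. Members had a median of 29153 UMIs in the untreated library and 28688 with P-G3, and 6.58% and 6.73% of a member's UMIs were mitochondrially encoded at the median. Depth went with Fabp4. Non-dividing cells with Fabp4 from 3000 to under 10000 CPM, called Fabp4-intermediate here, had medians of 41840 and 45155 UMIs, and those with 10000 or more, called Fabp4-high, had 58841 and 64097. When every cell was thinned to 10000 UMIs, members held a median of 2878 detected genes without P-G3 and 2550.5 with it.

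Fabp4-low cells made up 53.7% of kept cells in the untreated day 3 library (interval 52.0% to 55.3%) and 35.7% with P-G3 (34.2% to 37.2%). Among non-dividing cells of 10000 UMIs or more the shares were 69.5% (1930 of 2778) and 47.0% (1390 of 2956). The same rule took all 2867 such cells on day 0, 14.8% of 1515 on day 6 untreated and 6.86% of 1852 on day 6 with P-G3. The class was thus larger without P-G3 on both later days, as a share of each library. The other non-dividing day 3 cells were 399 Fabp4-intermediate and 449 Fabp4-high cells without P-G3, and 753 and 813 with it.

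Fabp4 itself ran without a gap across the limit. The median member held 497 Fabp4 CPM without P-G3 and 922 with it. Just inside the limit, from 2700 to 3000 CPM, lay 61 untreated and 60 P-G3 cells, and just outside it, from 3000 to 3300, lay 36 and 39 cells. At the division limit 34 and 30 cells lay from 1800 to 2000 CPM, against 33 and 24 from 2000 to 2200. Summed over all members Fabp4 stood at 823 CPM without P-G3 and 1249 CPM with it, against 29.7 CPM in the day 0 cells of the same class. The members are therefore low in Fabp4 relative to their neighbours but above the level before induction.

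**Figure D1:**
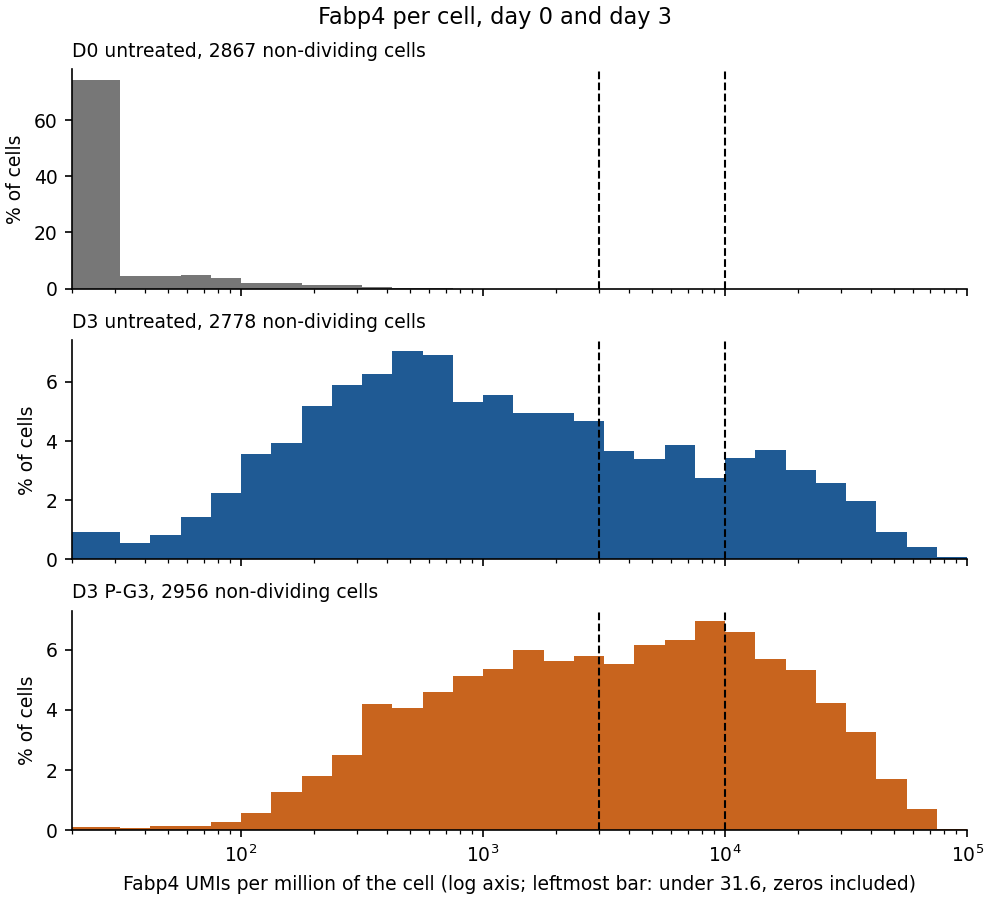
Share of non-dividing cells (vertical axis, percent) by the cell's Fabp4 CPM (horizontal axis, logarithmic) in the day 0, day 3 untreated and day 3 P-G3 libraries; dashed lines mark 3000 and 10000 CPM. The 1930 untreated and 1390 P-G3 members lie left of the first line, which no gap in either distribution marks.

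The cells are described by 3 stromal genes that were proposed as their markers with these data in view, so the levels are a description and no independent check: Dcn, which encodes the matrix proteoglycan decorin, Scara5, a ferritin scavenger receptor of fibroblasts, and Gas6, the vitamin K-dependent ligand of the TAM receptors Tyro3, Axl and Mertk. Dcn (ENSMUSG00000019929, GRCm38 chromosome 10, 97479609 to 97518143) stood at 383 CPM in untreated members (interval 378 to 388) and 300.4 CPM with P-G3 (295 to 306). It was lower in each neighbouring class, with 255 and 188 CPM in dividing Fabp4-low cells, 67.1 and 57.4 CPM in Fabp4-intermediate cells, and 24.98 and 28.64 CPM in Fabp4-high cells. At 10000 UMIs per cell a Dcn UMI was found in 64.4% of untreated members and 59.6% of P-G3 members, against 15.8% and 17.0% of Fabp4-high cells (79.4%, 76.1%, 50.3% and 49.6% without thinning). The gene is annotated as protein coding (GENCODE), and its level dropped in the same order of classes in both libraries.

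Scara5 (ENSMUSG00000022032, chromosome 14, 65666403 to 65764826) stood at 98.5 CPM in untreated members (96.1 to 101) and 59.3 CPM with P-G3 (57.0 to 61.7). Fabp4-high cells had 28.0 and 12.9 CPM. Gas6 (ENSMUSG00000031451, chromosome 8, 13465374 to 13494490) stood at 370.2 CPM in untreated members (365 to 375) and 148 CPM with P-G3 (144 to 151), and at 40.6 and 21.3 CPM in Fabp4-high cells. After thinning, a Gas6 UMI was found in 80.4% and 62.0% of members and in 27.6% and 18.5% of Fabp4-high cells. All 3 markers were thus highest in the Fabp4-low non-dividing class of each day 3 library, and all 3 were lower with P-G3 than without it there with total-count scaling. For Dcn this difference (-0.35) shrank to -0.09 under TMM scaling and turned to 0.11 and 0.25 in members with under 300 and 300 to under 1000 Fabp4 CPM. On day 6 the few remaining Fabp4-low cells (224 without P-G3, 127 with it) had 432 and 267 CPM of Dcn, 51.2 and 25.4 CPM of Scara5, and 468 and 76.6 CPM of Gas6.

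**Figure D2:**
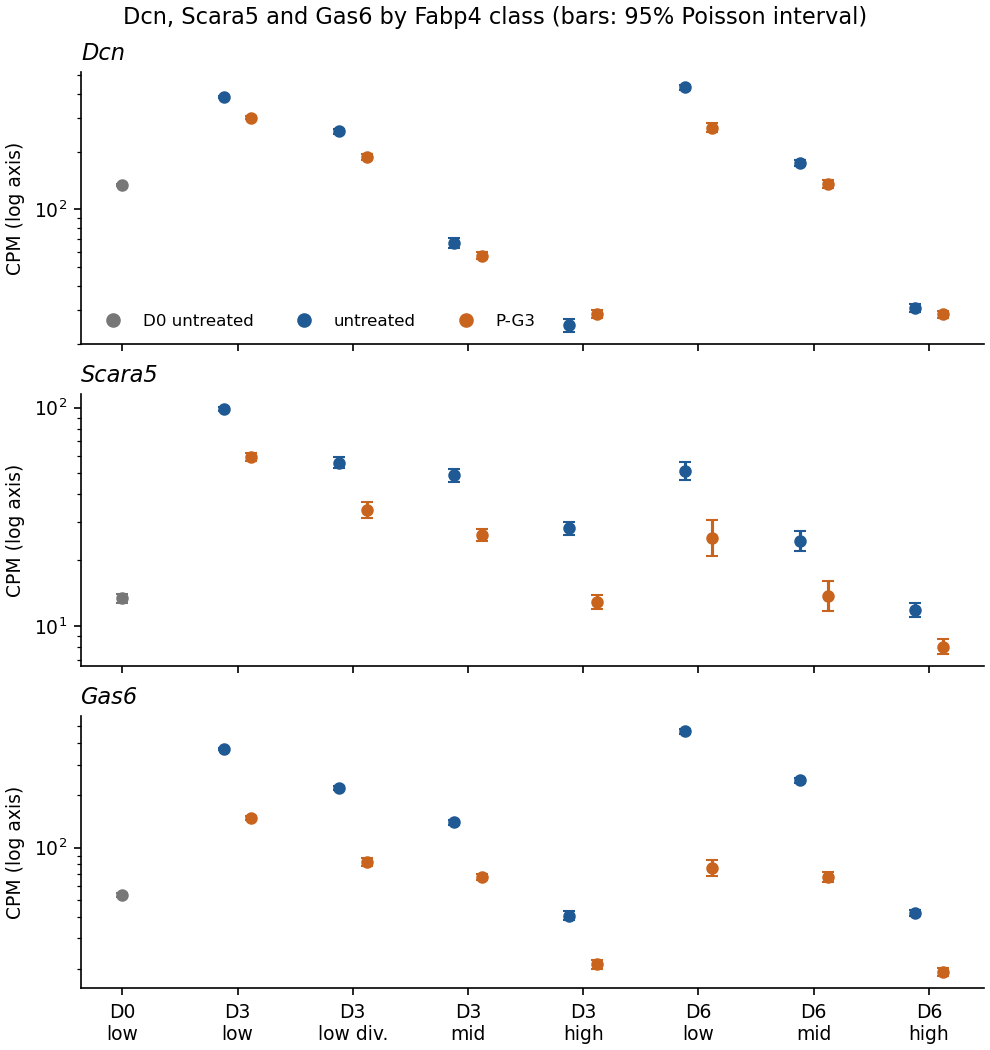
Levels of Dcn, Scara5 and Gas6 (CPM, logarithmic axes) summed over the cells of each class and library, with 95% Poisson intervals; grey is day 0, blue untreated and orange P-G3. At day 3 each marker is highest in the Fabp4-low class, for Dcn at 383 and 300.4 CPM, and falls through the Fabp4-intermediate to the Fabp4-high class.

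Markers of other cell types were scarce in the members. Endothelial genes summed to 0.766 CPM without P-G3 and 0.831 CPM with it (5 and 4 of 8 genes had a UMI), immune genes to 3.44 and 2.31 CPM (4 and 6 of 10), and myoblast genes to 0.0326 and 0 CPM (2 and 0 of 7). Epithelial genes summed to 2.22 and 2.82 CPM (4 and 3 of 7), against 33.4 and 45.3 CPM in Fabp4-high cells. The expression pattern most like that of Dcn over the 18 sums of library and class belonged to Tax1bp3 (Pearson r = 0.957), Cnpy2 (0.957), Matn2 (0.950), Col11a1 (0.950) and Col3a1 (0.948). These correlations describe sums that share libraries and are given with no p.

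One description sets Fabp4-low beside Fabp4-high cells of the same library. Because the classes were divided by Fabp4, it shows what went with Fabp4 and tests nothing. Matrix and progenitor genes were higher in the Fabp4-low cells, and genes of fat storage and nuclear genes of the respiratory chain and citric acid cycle were lower. Of the genes reaching 20 CPM in 1 class or both, 573 (9.82%) were higher by 2-fold or more and 468 (8.02%) were lower by as much in untreated Fabp4-low cells, and 378 (7.39%) and 456 (8.92%) with P-G3. Ratios below are log2((CPM + 1)/(CPM + 1)), so that 1 is 2-fold, and a list's count covers its genes with at least 5 CPM on either side. A gene that reached this floor only where it is high had to differ, so list counts are descriptions beside the share of all genes.

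Ptn, which encodes the secreted growth factor pleiotrophin, had the highest ratio of the named genes in the untreated library. It stood at 2836 CPM in untreated members against 145 CPM in Fabp4-high cells (log2 ratio 4.28, interval 4.25 to 4.34) and at 2214 against 161 CPM with P-G3 (3.77, 3.75 to 3.81). Mgp, the matrix Gla protein that restrains calcification, had 282.5 against 16.9 CPM (3.99) and 273 against 17.3 CPM (3.90). Lox, the enzyme that crosslinks collagen, had 338 against 22.9 CPM (3.83) and 128 against 8.83 CPM (3.71). Secreted matrix proteins and their modifiers thus lead this end. Adamts1, a matrix protease, had ratios of 3.74 and 3.57, Rnase4, a secreted ribonuclease, 3.67 and 3.52, and Osr1, a transcription factor of embryonic connective tissue, 3.62 and 3.33. Ahnak2 (3.45 and 3.11) and Plac8 (3.33 and 3.20) complete the 10 together with Dcn (3.89 and 3.35) and Col1a1.

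Of the preadipocyte and progenitor markers, 22 of 23 had a ratio above 0 without P-G3 (median 2.41) and 21 of 22 with it (2.08), where 52.9% and 44.7% of all genes did (medians 0.04 and -0.07). Pdgfra, the PDGF receptor that marks adipose progenitors, had 120 against 15.9 CPM and 81.7 against 13.5 CPM. Pdgfrb had 45.6 against 5.14 CPM and 35.1 against 4.70 CPM. Dlk1, the surface protein whose loss accompanies differentiation, had 796 against 141 CPM (2.49) and 804 against 197 CPM (2.02). Most listed markers of the precursor state thus stood higher in the members in both libraries. The list includes Dcn, Scara5 and Gas6, proposed as markers with these data in view, so its count is no independent check. Gas6 is counted again in the next list. Gas6 and its TAM receptors were above 0 in 4 of 4 genes in both libraries (1.94 and 1.73), with Axl at 55.0 against 15.9 CPM and 41.7 against 12.1 CPM.

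Collagen chains were higher in 16 of 18 genes without P-G3 (median 1.48) and 17 of 18 with it (1.30). Col1a1 had 744 against 57.4 CPM (3.67) and 405 against 40.6 CPM (3.29), and Col1a2, the other chain of collagen I, had ratios of 2.86 and 2.58. Matrix proteoglycans and glycoproteins were above 0 in 22 of 23 genes in each library (2.01 and 1.76), and 22 genes were at least 2-fold higher in each, against 11.1% and 8.28% of all genes of at least 5 CPM. Metalloproteinases and their inhibitors were higher in 11 of 13 and 9 of 11 genes (2.16 and 1.73), led by Timp2 (3.35 and 2.78). Contractile genes were higher in 19 of 22 genes in both (1.46 and 1.11), and Acta2, smooth muscle actin, had 823 against 84.8 CPM and 450.5 against 54.7 CPM. Chemokines and cytokines were higher in 7 of 8 and 6 of 6 genes (2.14 and 2.30). Ccl2, the monocyte attractant, had 34.6 against 1.40 CPM without P-G3 and 16.2 against 0.289 CPM with it. Immediate early genes were higher in 16 of 18 and 15 of 17 genes (1.19 and 1.24), with Junb at 1.96 and 2.12. Lysosomal genes were higher in 25 of 26 genes in both (1.11 and 0.97).

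At the other end stood the adipocyte genes. All 21 measured adipocyte identity genes were lower in each library, with medians of -4.19 and -3.82, where 47.1% and 55.3% of all genes were lower. Cidec, a lipid droplet protein, had 7.40 against 353 CPM (-5.40) and 7.76 against 296 CPM (-5.08). Adipoq, which encodes adiponectin, had 2.46 against 127 CPM (-5.21) and 4.64 against 164 CPM (-4.87). Acsl1, which activates fatty acids, had 41.9 against 1249 CPM (-4.86) and 28.7 against 878 CPM (-4.89). G0s2, an inhibitor of triglyceride breakdown, had 38.9 against 1437 CPM (-5.17) and 108.5 against 1730 CPM (-3.98). The hormone gene Retn (-4.42 and -4.30), the adipsin gene Cfd (-4.67 and -4.52) and Mrap (-5.47 and -5.01), Adig (-4.95 and -4.67), Gpd1 (-4.67 and -4.52) and Dgat2 (-4.39 and -3.87) were lower by similar amounts. After thinning to 10000 UMIs, Adipoq was seen in 2.28% and 2.30% of members against 47.2% and 45.3% of Fabp4-high cells, and in 0 of 2867 day 0 cells, which allows a share of cells with a captured UMI of up to 0.129% and does not limit expression (5.60%, 8.49%, 73.5% and 71.6% of the day 3 cells without thinning). How much free RNA adds to the members' share was not tested.

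Among the upstream regulators, Pparg had 51.9 against 169 CPM (-1.68) without P-G3 and 60.4 against 184 CPM (-1.59) with it, and a Pparg UMI was found in 36.7% and 38.4% of thinned members. Cebpa had 8.34 against 87.1 CPM (-3.24) and 8.41 against 61.0 CPM (-2.72). Cebpd, which acts early in the cascade, went the other way, with 202 against 74.6 CPM (1.43) and 243 against 89.6 CPM (1.43). Of the adipogenic transcription factors 10 of 21 and 9 of 20 were above 0, with medians of -0.06 and -0.09, close to those of all genes. The restraints on adipogenesis were above 0 in 19 of 22 and 17 of 22 genes (0.53 and 0.40). Lpl, the lipoprotein lipase, had 566 against 2690 CPM (-2.25) and 428 against 2085 CPM (-2.28).

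Nuclear genes of the respiratory chain were below 0 in 45 of 45 genes in each library (medians -0.77 and -0.63), and citric acid cycle genes in 22 of 23 (-0.88 and -0.96). The mitochondrially encoded genes were mixed, with 8 of 13 below 0 without P-G3 (median -0.20) and 6 of 13 with it (0.08). Cycs, the electron carrier cytochrome c, had ratios of -2.37 and -2.18. Fatty acid and triglyceride synthesis genes were lower in 14 of 18 (-1.23 and -1.07), and cholesterol synthesis genes in 20 of 21 and 21 of 21 (-0.58 and -0.70). ATF4 targets, which serve amino acid supply under stress, were lower in 20 of 22 in each library (-0.81 and -0.78).

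**Figure D3:**
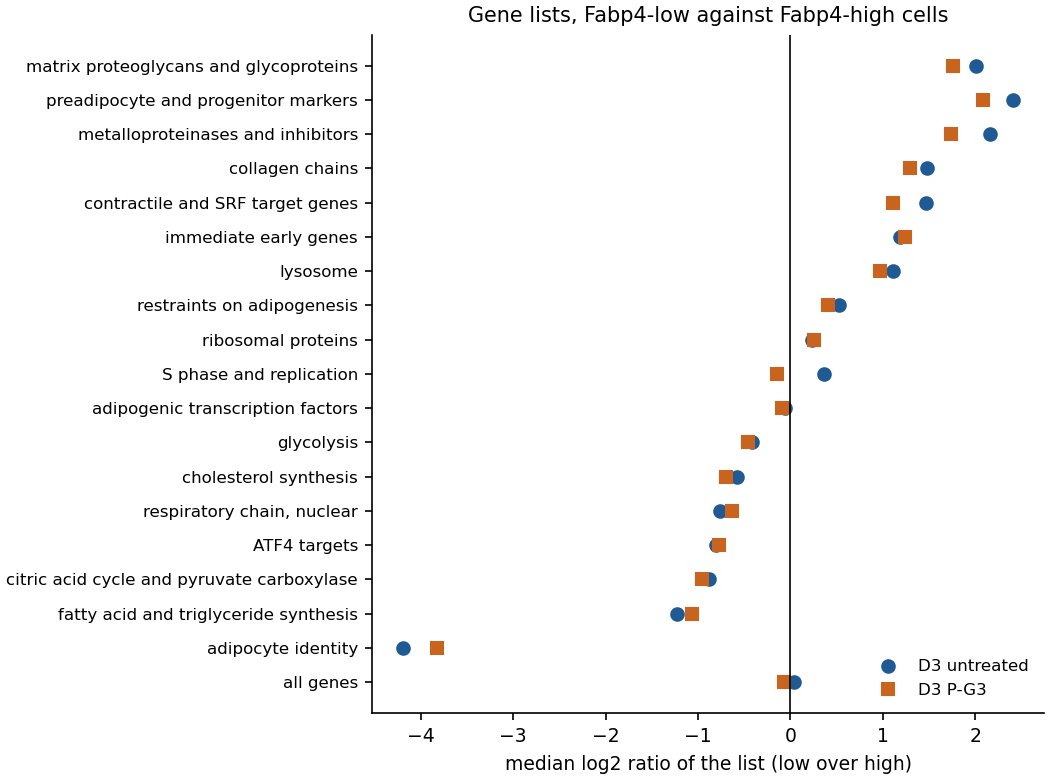
Median log2 ratio of each gene list, Fabp4-low over Fabp4-high cells (horizontal axis), in the untreated (blue) and P-G3 (orange) day 3 libraries. Adipocyte identity lies lowest, at -4.19 and -3.82, progenitor markers lie at 2.41 and 2.08, and the S phase list lies on opposite sides of 0, at 0.36 and -0.15.

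Fabp4-intermediate cells differed from the members by less in the progenitor and adipocyte identity lists. This did not hold for every list. Exceptions with P-G3 included S phase genes (-0.38 against intermediate and -0.15 against high cells) and complement and acute phase genes (0.65 and 0.46). They also included cAMP targets (0.69 and 0.65) and insulin and IGF signalling genes (0.17 and 0.09). Without P-G3 the division genes of the rule were an exception (-0.47 and 0.11). Higher in the members by 2-fold or more were 192 genes (3.41%) without P-G3 and 108 (2.2%) with it, and lower by as much 85 (1.51%) and 52 (1.06%). Dcn had ratios of 2.50 and 2.37, Mgp 2.09 and 2.06, Osr1 2.15 and 1.62, and Col1a1 1.94 and 1.72. Lower were G0s2 (-3.46 and -2.73), Cidec (-3.09 and -2.59), Acsl1 (-2.99 and -2.41) and Fabp5, another fatty acid carrier, which had 1268 against 5493 CPM (-2.11) and 2095 against 6024 CPM (-1.52). Progenitor markers were above 0 in 23 of 23 and 20 of 22 genes (1.17 and 0.94), and adipocyte identity genes below 0 in 19 of 20 and 18 of 19 (-2.29 and -1.77). Of all genes 51.6% and 44.1% were above 0 and 48.4% and 55.9% below it, with medians of 0.02 and -0.05.

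The next comparison asks what cells under the same Fabp4 limit looked like before and 3 days after induction. It sets the 1930 untreated members against the 2867 day 0 cells. The limit did not match their Fabp4, whose median was 0 CPM in day 0 cells and 497 CPM in members. The part of Fabp4 in the differences below was not tested. The members carried glucocorticoid-responsive, complement and early adipogenic mRNAs that day 0 cells had little of. They held fewer contractile, chemokine and replication mRNAs. A difference of 2-fold or more was seen upward in 329 genes (5.79%) and downward in 176 (3.1%). Under TMM scaling these counts were 272 and 259, and under median-of-ratios scaling 255 and 292, so the balance of the counts depends on the scaling.

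Glucocorticoid targets were above 0 in 21 of 22 genes with a median of 2.06, beside 55.4% of all genes and a median of 0.07 (-0.06 under TMM scaling). Fkbp5, a chaperone of the glucocorticoid receptor and a classical target of it, had 269 CPM in members and 24.7 CPM on day 0 (3.40, interval 3.40 to 3.50). Glul, glutamine synthetase, had 138 and 5.46 CPM (4.43), and Lcn2, the lipocalin that binds siderophores, had 90.2 and 0.849 CPM (5.62). The transcription factor Zbtb16 had 39.0 and 0.424 CPM. The list was read because the cocktail contains dexamethasone, a synthetic glucocorticoid. Aldh1a7, an aldehyde dehydrogenase with a close paralog in Aldh1a1 that reads may be shared with, had 58.1 and 0.180 CPM (5.65), and Cdo1, cysteine dioxygenase, 115 and 3.14 CPM (4.81).

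Complement and acute phase genes were above 0 in 10 of 12 (median 2.63), with C3, the central complement protein, at 264 and 9.79 CPM (4.62). All 16 measured adipocyte identity genes were higher (2.75), with Agt, angiotensinogen, at 127 and 2.82 CPM (5.07). Adipogenic transcription factors were above 0 in 18 of 20 (1.46): Cebpd had 202 and 43.6 CPM (2.19), Klf9 214 and 52.6 CPM (2.00), and Pparg 51.9 and 14.5 CPM (1.77). The lists overlap, so their counts are not separate. Cebpd, Klf9, Klf15, Nr3c1 and Zbtb16 are also on the list of glucocorticoid targets, and Lcn2 is on that list and the complement and acute phase list. Pcx, the pyruvate carboxylase, had 128 and 5.83 CPM (4.24), Socs2, an inhibitor of cytokine signalling, 57.3 and 4.74 CPM (3.34), and Fam13a had a ratio of 3.53. Insulin and IGF signalling genes were above 0 in 16 of 20 (1.02), with Igfbp4, an IGF binding protein, at 161 and 17.2 CPM (3.16).

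The stromal markers were also higher in day 3 members, with ratios of 2.79 for Scara5, 2.77 for Gas6 and 1.51 for Dcn. Mertk, a receptor of Gas6, had 22.5 CPM in members and 0.942 CPM on day 0, whereas Axl had a ratio of -0.46. Over the whole list of progenitor markers 12 of 23 were above 0, with a median of 0.01 that became -0.12 under TMM scaling, so the list had no direction that held. Within it Pdgfra had 120 and 35.9 CPM (1.71), and Fbn1, the microfibril protein, 40.6 and 124.6 CPM (-1.59). Dlk1 had 796 and 2142 CPM (-1.43). Basement membrane genes were above 0 in 12 of 12 (1.14) and collagen chains in 15 of 19 (0.80), with Col4a1 at 1012 and 370.2 CPM (1.45).

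Spp1, which encodes osteopontin, had the lowest ratio, with 51.4 CPM in members and 1201 CPM on day 0 (-4.52, interval -4.60 to -4.50). Timp1, an inhibitor of metalloproteinases, had 207 and 2148 CPM (-3.37). Contractile genes were below 0 in 20 of 22 (median -1.17), where 44.6% of all genes were, with Tagln at 55.8 and 528 CPM (-3.22), Tnnt2 at a ratio of -3.26 and Acta2 at 823 and 3028 CPM (-1.88). These genes belong to the actin and smooth muscle apparatus of fibroblasts. Chemokines and cytokines were below 0 in 11 of 12 (-1.28), with Ccl7 at 21.3 and 160 CPM (-2.85) and Ccl2 at 34.6 and 248.7 CPM (-2.81). S phase genes were below 0 in 40 of 40 (-0.70) and ATF4 targets in 20 of 22 (-0.97), with Asns, asparagine synthetase, at 70.0 and 295 CPM (-2.06). The division genes of the rule were below 0 in 9 of 10 as well (-0.56). Their sum had a median of 101 CPM per member and 272 CPM per day 0 cell under the same limit. The part of this in the S phase difference was not tested. Ifi27l2a (-3.55), Ccn5 (-3.08), Bcat1 (-2.84) and Cdsn (-2.79) were the other named genes. Hmga2, a chromatin protein of growing cells, had 184.5 and 705 CPM (-1.93).

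A further comparison asks how the Fabp4-low class differed with P-G3, by setting the 1390 P-G3 members against the 1930 untreated ones. mRNAs of glycolysis and the hypoxia response stood higher with P-G3, and those of Gas6, the collagen crosslinking enzyme Lox and the cytoskeletal genes Myh9 and Tagln stood lower. Ratios of 2-fold or more were found upward for 8 genes (0.148%) and downward for 81 (1.5%). This balance depends on scaling and on transcript length: the counts were 29 and 19 under TMM scaling, 31 and 18 under median-of-ratios scaling, and 9 and 10 once the trend with length was taken out. The median of all genes of at least 20 CPM was -0.23, against 0.02 under TMM and 0.05 under median-of-ratios scaling. Across 5397 genes the ratio went with transcript length (Spearman correlation -0.69 across genes, which are not replicates), from a median of 0.14 in the bin of the shortest transcripts, 690 nt at the median, to -0.67 in the bin of the longest, 10282 nt. The 3 measured genes of the RNA quality list were all lower, 1 of them by 2-fold or more, with a median of -0.37 that became 0.19 with the length trend removed, and the part of RNA quality in the differences was not tested. For most genes below, the ratio under TMM scaling and the ratio with the length trend removed follow the first.

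Gas6 had the largest P-G3 difference of the 3 stromal markers, and Bnip3, Ddit4 and Fam162a are the named higher genes whose upstream sequence holds a hypoxia response core. Their sequences are the 250 bases before the RefSeq start on GRCm38.p6, all on the minus strand and written 5′ to 3′ in the direction of transcription, with matches in capitals. For Gas6 (chr8:13494536-13494785) the capitals mark the GC box, GGGCGG or its reverse complement CCGCCC. For Bnip3 (chr7:138909507-138909756), Ddit4 (chr10:59951771-59952020) and Fam162a (chr16:36071562-36071811) they mark the core of the hypoxia response element, ACGTG or its reverse complement CACGT, and the 2 matches of Bnip3 overlap.
Gas6: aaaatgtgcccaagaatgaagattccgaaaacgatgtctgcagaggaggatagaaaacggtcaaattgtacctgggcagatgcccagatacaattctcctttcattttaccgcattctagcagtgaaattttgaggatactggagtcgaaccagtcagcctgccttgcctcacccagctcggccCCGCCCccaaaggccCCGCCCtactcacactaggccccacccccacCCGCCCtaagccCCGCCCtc
Bnip3: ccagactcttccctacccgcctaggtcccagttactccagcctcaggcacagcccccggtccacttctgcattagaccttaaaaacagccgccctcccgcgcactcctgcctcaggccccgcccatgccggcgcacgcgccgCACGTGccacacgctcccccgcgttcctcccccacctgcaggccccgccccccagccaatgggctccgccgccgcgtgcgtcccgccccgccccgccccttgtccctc
Ddit4: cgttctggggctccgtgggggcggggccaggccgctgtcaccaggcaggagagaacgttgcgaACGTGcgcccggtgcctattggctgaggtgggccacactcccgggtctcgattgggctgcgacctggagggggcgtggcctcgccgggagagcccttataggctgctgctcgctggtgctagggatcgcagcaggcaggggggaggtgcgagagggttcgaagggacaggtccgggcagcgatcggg
Fam162a: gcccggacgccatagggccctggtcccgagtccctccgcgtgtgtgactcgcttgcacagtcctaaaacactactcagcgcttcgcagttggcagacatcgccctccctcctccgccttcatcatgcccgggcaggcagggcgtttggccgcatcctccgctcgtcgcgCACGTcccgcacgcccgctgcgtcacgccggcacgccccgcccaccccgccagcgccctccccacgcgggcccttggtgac
The ACGTG core is present in 16.6% of all 27025 promoter windows of this length and the GC box in 32.9%. Among the 10 named genes that stood higher with P-G3, 3 windows hold the core and 6 the GC box. Among the 10 that stood lower, 7 had a window, none of these 7 holds the core and all 7 hold the GC box. A match describes these letters and is neither a binding site nor a cause, and a window without one says nothing about the factor.

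G0s2 (ENSMUSG00000009633, chromosome 1, 193272161 to 193273217) stood at 38.9 CPM in untreated members and 108.5 CPM with P-G3 (1.46, interval 1.41 to 1.55; 1.71 and 1.32). Mif (ENSMUSG00000033307, chromosome 10, 75859353 to 75860240), a secreted cytokine, stood at 354 and 831 CPM (1.23, interval 1.21 to 1.26; 1.49 and 1.09). Bnip3, a mitophagy receptor induced in hypoxia, stood at 51.1 and 108 CPM (1.06; 1.32 and 1.09). The Mif transcript is 544 nt long, at the short end of the length trend. Fam162a, a mitochondrial protein, stood at 286 and 582 CPM (1.02; 1.28 and 0.88), and Ddit4, an inhibitor of mTORC1, at 57.1 and 113 CPM (0.97; 1.23 and 1.00). Ankrd37, another gene known to respond to hypoxia, stood at 11.7 and 37.2 CPM (1.59, given with total-count scaling only). Among the enzymes of glycolysis Tpi1 stood at 512 and 968 CPM (0.92; 1.18 and 0.90), Eno1 at 239 and 432 CPM (0.85; 1.11 and 0.97) and Gapdh at 2742 and 4844 CPM (0.82; 1.08 and 0.75). Mif, Gapdh, Eno1 and Tpi1 have retrocopies in the mouse genome, and how reads were split with them is uncertain. Cbr2 (0.85; 1.10 and 0.74) and Agt (0.83; 1.09 and 0.94) complete the named genes.

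Glycolysis genes were above 0 in 16 of 17 members of the list (median 0.42; 0.67 and 0.62), and hypoxia-responsive genes in 14 of 18 (0.37; 0.62 and 0.76), where 22.2% of all genes were above 0 with a median of -0.28. None of the 17 glycolysis genes and 2 of the 18 hypoxia genes were at least 2-fold higher, against 0.108% of all genes of at least 5 CPM. Nuclear respiratory chain genes were above 0 in 40 of 45 (0.18; 0.44 and 0.19), and ribosomal protein genes, which are short, in 38 of 38 (0.18; 0.45 and 0.10). Adipocyte identity genes were above 0 in 11 of 16 (0.08; 0.31 and 0.27).

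Myh9, the heavy chain of non-muscle myosin, stood at 165 CPM in untreated members and 57.4 CPM with P-G3 (-1.51, interval -1.59 to -1.46; -1.25 and -0.94). Tagln stood at 55.8 and 20.6 CPM (-1.40; -1.15 and -1.42), and Lox at 338 and 128 CPM (-1.40; -1.14 and -0.96). Gas6 stood at 370.2 and 148 CPM (-1.32, interval -1.37 to -1.28; -1.06 and -1.09). It is the only one of the 3 stromal markers among the 10 lowest named genes, and its window has 4 GC boxes. Cdh11, a cadherin of mesenchymal cells, stood at 149 and 57.8 CPM (-1.35; -1.09 and -0.82), Rhou at 122 and 47.3 CPM (-1.35; -1.09 and -1.03), and Hmga2 at 184.5 and 74.4 CPM (-1.30; -1.04 and -0.92). The remaining named genes were Pcdh19 (-1.36; -1.11 and -0.69), Tnrc18 (-1.35; -1.09 and -0.68) and Stim1, the calcium sensor of the endoplasmic reticulum (-1.25; -0.998 and -0.82). With the length trend removed all 10 ratios were still negative. The genes had been picked as the lowest ratios, so this is no independent check. Scara5 had -0.72 (-0.46 and -0.35) and Dcn -0.35 (-0.09 and -0.32).

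CCN and YAP target genes were below 0 in 11 of 11 (median -0.85; -0.61 and -0.43) and contractile genes in 20 of 21 (-0.42; -0.20 and -0.17), where 77.8% of all genes were below 0. So were 22 of 22 genes on a list of heparan sulfate proteoglycans, their assembly, caveolae and endocytosis (-0.47; -0.21 and -0.10). TGF-beta and BMP genes were below 0 in 19 of 23 (-0.66; -0.41 and -0.10) and insulin and IGF signalling genes in 16 of 20 (-0.72; -0.47 and -0.21). Both counts lie near the 77.8% of all genes, so they say little about these lists. Igf1 stood at 38.9 and 11.7 CPM (-1.65 with total-count scaling). Its ratios under TMM scaling and without the length trend are not given here. Collagen chains were below 0 in 18 of 18 (-0.52; -0.26), but their median was 0.01 once the length trend was removed. Other matrix lists had no direction that held: matrix proteoglycans and glycoproteins had a median of -0.28, the same as all genes, and 0.07 with the trend removed, basement membrane genes -0.46 and 0.04, and collagen processing genes -0.13, which became 0.12 under TMM scaling and 0.17 with the trend removed. Col1a1 stood at 744 and 405 CPM (-0.88; -0.62 and -0.33). The adipogenic transcription factors had a median of -0.28 (-0.03 and 0.18), so that their direction turned with the length trend removed, and Timp1 at -0.13 turned to 0.13 under TMM scaling.

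**Figure D4:**
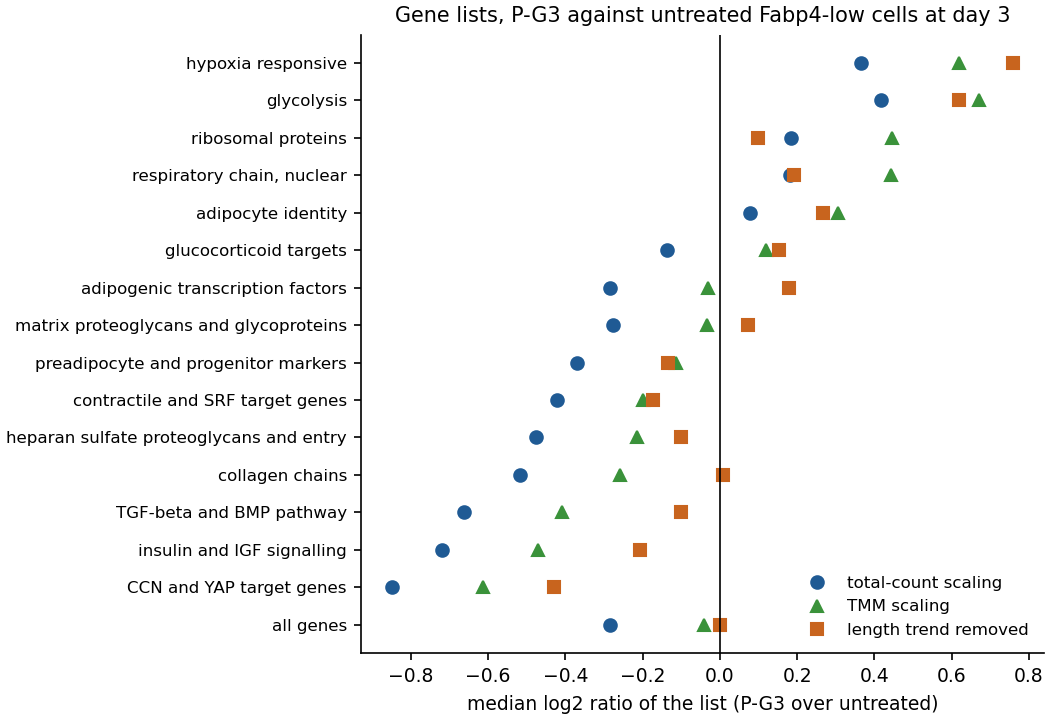
Median log2 ratio of each gene list, P-G3 over untreated Fabp4-low day 3 cells, with total-count scaling (circles), TMM scaling (triangles) and the length trend removed (squares). Glycolysis (0.42, 0.67 and 0.62) and hypoxia-responsive genes (0.37, 0.62 and 0.76) lie right of 0 in each, CCN and YAP target genes left of it (-0.85, -0.61 and -0.43), and collagen chains reach 0.01 without the trend.

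The D3 untreated library enters the last comparisons on both sides, so the values are given side by side. Gas6 stood at 53.5 CPM in Fabp4-low cells on day 0, 370.2 CPM in untreated members and 148 CPM in P-G3 members. Mif stood at 851, 354 and 831 CPM in the same order, and Hmga2 at 705, 184.5 and 74.4 CPM. The level of P-G3 members thus lay between the other two for Gas6, near day 0 for Mif and beyond the untreated members for Hmga2.

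P-G3 members held more Fabp4 than untreated ones, so the differences were also read within 3 ranges of Fabp4 and in the neighbouring classes, with total-count scaling. In members under 300, from 300 to under 1000 and from 1000 to under 3000 Fabp4 CPM, the P-G3 to untreated ratio of G0s2 was 1.45, 1.18 and 0.85, that of Mif 1.13, 1.21 and 1.17, and that of Gas6 -1.25, -1.31 and -1.07. Lox had -0.82, -1.26 and -1.19, Bnip3 1.00, 0.96 and 0.96, and Scara5 -0.19, -0.63 and -0.79. Dcn had 0.11, 0.25 and -0.49, so it was lower with P-G3 in the highest of the 3 ranges and not in the others. In Fabp4-high cells of the same day the ratios were 0.27 for G0s2, 1.00 for Mif, -0.90 for Gas6, -1.28 for Lox and 0.33 for Bnip3. In dividing Fabp4-low cells they were 1.51, 0.99, -1.40, -1.67 and 1.17, and in the few Fabp4-low cells of day 6 they were 1.33, 0.74, -2.60, -1.77 and 0.80. The difference between these classes was not tested.

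Another description sets the members beside dividing Fabp4-low cells (427 untreated, 348 P-G3), which the rule separates by 10 late cell cycle genes. Lower in members by 2-fold or more were 273 genes (4.77%) without P-G3 and 260 (5.24%) with it, and higher by as much 24 (0.419%) and 28 (0.564%). The lower genes were further mitotic genes, such as Prc1 (-3.72 and -4.16), Aurka (-3.75 and -4.01), Kif11 (-3.60 and -3.89) and Plk1 (-3.53 and -3.50). Replication genes, which the rule does not hold, were below 0 in 39 of 40 and 36 of 39 (medians -1.07 and -1.24), where 45.8% and 51.6% of all genes were below 0, with Tk1, thymidine kinase, at 37.2 against 186 CPM (-2.29) without P-G3 and a ratio of -2.40 with it. Members stood higher in Junb, a component of AP-1, with 132 against 54.3 CPM (1.27) and 101.5 against 36.8 CPM (1.44), in Cdkn2b, a cell cycle inhibitor (0.95 and 1.11), and in Selenop, the selenium carrier (0.88 and 1.21). Lysosomal genes were above 0 in 26 of 26 in both libraries (0.38 and 0.42), where 54.2% and 48.4% of all genes were, glucocorticoid targets in 20 of 22 in both (0.40 and 0.27) and immediate early genes in 17 of 18 and 15 of 17 (0.69 and 0.58). The stromal markers were also higher in the members, at 0.58 and 0.68 for Dcn, 0.81 and 0.79 for Scara5 and 0.74 and 0.82 for Gas6. Pparg (0.64 and 0.51) and Cebpd (0.71 and 0.64) were higher too, and the lipid genes Plin4 (1.23 and 0.89) and Pnpla2 (1.20 and 0.87) were among the 10 highest.

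The members were not uniform. The untreated members divide into 650, 742 and 538 cells from the lowest to the highest Fabp4 range, and the P-G3 members into 193, 541 and 656. Dcn was 578.5, 357 and 210 CPM in these ranges without P-G3, and 624, 425 and 149 CPM with it. Gas6 was 421, 399 and 282 CPM without P-G3 and 176, 160 and 134 CPM with it. Both stromal markers thus stepped down as Fabp4 went up in each library. G0s2 stepped up, with 7.47, 26.4 and 87.4 CPM without P-G3 and 22.1, 60.9 and 158 CPM with it. So did Lpl (405, 576 and 724 CPM, and 266, 382 and 494 CPM) and Pparg (36.4, 52.4 and 67.6 CPM, and 35.4, 51.8 and 71.5 CPM). Cebpd did not follow Fabp4, with 192, 219 and 192 CPM and 266, 259 and 229 CPM. Ccl2 was 63.1, 22.8 and 19.1 CPM without P-G3, but 18.3, 35.5 and 3.11 CPM with it.

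**Figure D5:**
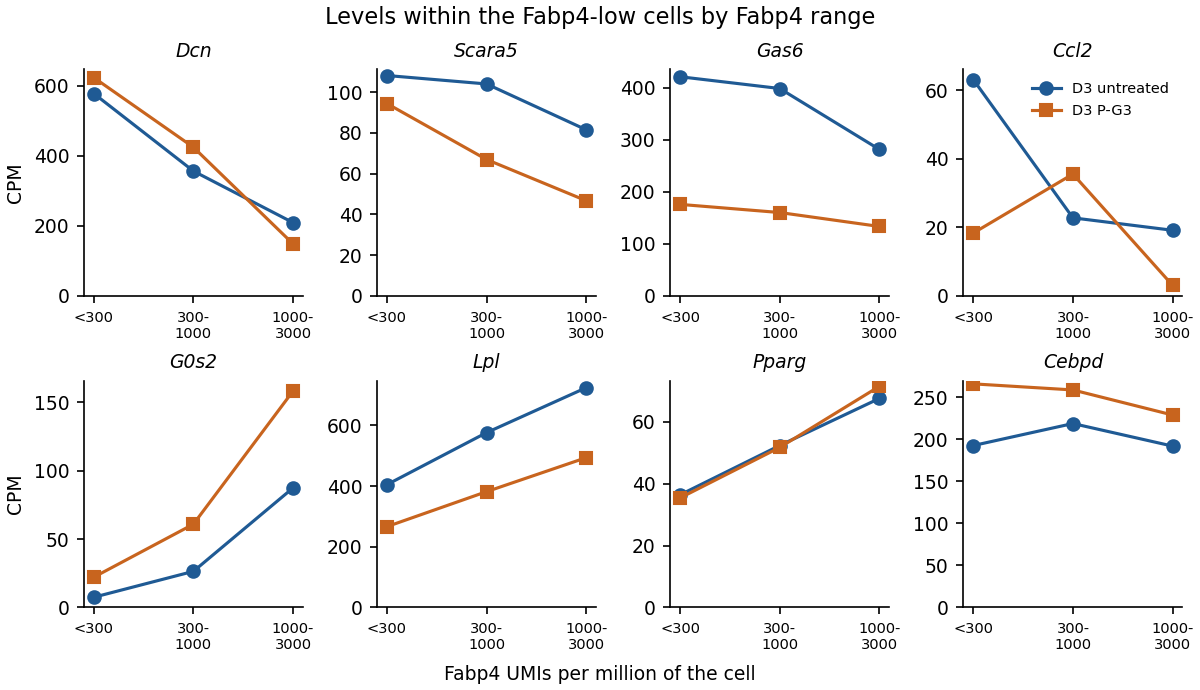
Levels (CPM) of 8 genes in members with under 300, 300 to 1000 and 1000 to 3000 Fabp4 CPM, untreated (blue) and P-G3 (orange). Dcn falls from 578.5 to 210 CPM and from 624 to 149 CPM, G0s2 climbs from 7.47 to 87.4 CPM and from 22.1 to 158 CPM, and Pparg takes nearly the same values in both libraries.

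Between the highest and the lowest Fabp4 range, adipocyte identity genes were higher in 16 of 17 without P-G3 (median 2.06) and 15 of 17 with it (1.32), and progenitor markers were lower in 22 of 23 (-0.57) and 19 of 24 (-0.39). Respiratory chain genes were higher in 45 of 45 (0.37) and 41 of 45 (0.33). Of all genes 46.6% and 57.9% were higher and 53.4% and 42.1% lower, with medians of -0.02 and 0.07, and 0.567% and 1.28% were at least 2-fold higher. Even the lowest range held some lipid gene mRNA. In it Adipoq stood at 0.84% of its Fabp4-high level without P-G3 and 0.86% with it, Cidec at 0.58% and 1.16%, Retn at 1.14% and 1.40%, and Cd36 at 1.54% and 2.76%, whereas Cebpa stood at 5.428% and 6.604%, Lpl at 15.04% and 12.78% and Pparg at 21.6% and 19.3%. The part of free RNA in the lowest of these was not tested.

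Between single members of 1 library, counts thinned to 10000 UMIs varied most for Malat1, a nuclear noncoding RNA (Fano factor, the variance over the mean, 78.5 without P-G3 and 46.7 with it), and for Ptn (31.5 and 21.3). An untreated member at the median held 21 Ptn UMIs, the highest 230. Acta2 came next among untreated members with a Fano factor of 31.1, a median of 1 UMI and a 90th percentile of 23. Dcn had a Fano factor of 13.2, with a median of 1, a 90th percentile of 12 and a maximum of 90 UMIs, and 11.0 with P-G3. At this depth a UMI of Ptn was found in 96.9% of untreated members, of Dcn in 64.4% and of Acta2 in 58.3%. The first principal component of 500 variable genes held 9.27% of the variance among untreated members and 10.9% among P-G3 members. It ran from Malat1, Dcn and Ptn at one end to Fabp5, Cycs, Ran, Ranbp1, Hspd1, Pclaf and Hmgb2 at the other. The second held 5.33% and 3.58% and had Acta2 and Ptn at one end, with Mt1, Lpl and Agt at the other without P-G3 and Malat1, Zfas1 and Cdkn1a with it.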

How the data were processed

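Single-cell 3' RNA-seq libraries of 3T3-L1 cells were made with the Chromium v2 protocol per the labels, 1 library for each of 5 groups. The deposited files hold raw UMI counts per gene and called cell barcode. Per the submitters' processing notes Cell Ranger 3.1.0 was used with GRCm38, whereas the matrix headers name 5.0.1, which leaves the version open to doubt. Neither an annotation release nor a strand setting is given in the sources used here. Samples were grouped by their titles, and the matrices held 0 columns of other samples.

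The members, the 47 gene lists and the comparisons were chosen with earlier results of these data known. Cells were classed by the limits given in the report, and no doublets were removed. Counts were summed over the cells of a class and library and scaled to CPM of that sum. Levels carry exact Poisson intervals, shares exact Clopper-Pearson intervals, and ratios, taken as log2((CPM + 1)/(CPM + 1)), exact conditional binomial intervals computed without the pseudocount of 1, which therefore sit off the printed ratio for low genes. A gene was called at 20 CPM in either sum and 2-fold, and a list used genes of at least 5 CPM. With 1 library per group no test was made. Named genes are the 10 highest and 10 lowest ratios at 50 CPM or more with 1 direction when scaled by totals, TMM or median of ratios and in both day 3 libraries where both were compared, without Fabp4, the 10 division genes, mitochondrial, ribosomal protein and unnamed genes, to which come 2 to 4 leading members of described lists and 22 fixed genes. Patterns like that of Dcn were ranked by Pearson correlation of log2(CPM + 1) over class sums. For shares of cells, Fano factors and components each cell was thinned to 10000 UMIs.

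Transcript lengths and positions came from GENCODE (GRCm38) for 32158 of 32285 genes, and the length trend was removed as the median of 20 bins. Promoter windows came from RefSeq (GRCm38.p6). The scripts were tested on simulated data. Python 3.11.15, numpy 2.4.6, scipy 1.17.1, pandas 2.3.3, matplotlib 3.10.9, R 4.3.3 and edgeR 4.0.16 (TMM factors only) were used. Alternatives varied the limits on Fabp4, division and UMIs, the CPM floor, the pseudocount, the scaling, the length trend and the cells with most UMIs.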

Additional observations from a re-analysis of the deposited data

Results flagged for a closer look

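A few values lay on opposite sides of 0 in the 2 day 3 libraries. None of these differences between libraries was tested, since each library stands alone. The S phase and replication genes had a median log2 ratio of 0.3587 in Fabp4-low over Fabp4-high cells without P-G3 and -0.1481 with it. Within the Fabp4-low cells, members with 1000 to 3000 Fabp4 CPM were also set over those with under 300. There 53.4% of all genes were lower without P-G3 and 57.9% were higher with it (medians -0.02 and 0.07). The S phase list had a median of -0.2732 without P-G3 (37 of 39 genes lower) and 0.5329 with it (37 of 39 higher). The 10 division genes of the rule moved alongside, with a median of -0.02 without P-G3 (4 of 10 higher) and 0.93 with it (10 of 10 higher, 3 of them by 2-fold or more), and their part in the S phase difference was not tested. The list of heparan sulfate proteoglycans, their assembly, caveolae and endocytosis, over the same ranges, had medians of -0.1203 and 0.1603.

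The 3 RNA quality genes had a median ratio of 0.3776 in Fabp4-low over Fabp4-intermediate cells without P-G3 and -0.1308 with it. Spp1, the osteopontin gene, had 0.231 and -0.1689 in the same comparison. Hmga2 had -0.2061 in non-dividing over dividing Fabp4-low cells without P-G3 and 0.1444 with it. For the comparisons between classes the opposite signs were present with scaling by totals, by TMM and by median of ratios.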

How the results depend on the processing

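With a floor of 1 CPM in place of 20 CPM, the genes at least 2-fold different numbered 2012 (1041 with the settings of the report) for Fabp4-low against Fabp4-high without P-G3 and 1677 (834) with it, 585 (277) and 371 (160) against Fabp4-intermediate, 488 (297) and 524 (288) against dividing cells, 1091 (505) for day 3 against day 0 and 177 (89) for P-G3 against untreated. With 50 CPM they numbered 631, 500, 147, 88, 173, 158, 275 and 37 in the same order. A higher floor leaves fewer genes to count. P-G3 against untreated also gave 48 under TMM scaling and 49 under median-of-ratios scaling. It gave 43 with a pseudocount of 5 CPM, which draws ratios together, and 19 with the length trend removed. A Fabp4 limit of 2000 CPM gave 270 against Fabp4-intermediate with P-G3. The intermediate class still began at 3000 CPM there, so cells between these limits were left out. What else moved these counts was not tested. The share of kept cells, 53.7% and 35.7%, was 48.6% and 28.9% with a Fabp4 limit of 2000, 56.6% and 39.8% with 4000, 48.03% and 31.83% with a division limit of 1000, and 45.0% and 29.2% with at least 20000 UMIs. Of 3352 values of named genes under the alternatives, 1046 moved beyond their counting interval, and no stability follows from the rest, since the 2 floors cannot change a gene's own ratio (316 values each) and the rule for genes named by fold asked for 1 direction under all scalings. Among ratios of 2-fold or more, 1 changed direction: Ccl2 in P-G3 over untreated members went from -1.05 to 0.62 in those with 300 to under 1000 Fabp4 CPM, a setting chosen after seeing the data; the cause was not tested. No paired analysis was possible because each group has 1 library. With 1 library per group, counting intervals understate the true error, and deep sums make them narrow.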

Other observations

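Several further groups of genes had medians above 0 in Fabp4-low over Fabp4-high cells in both day 3 libraries, where 52.9% and 44.7% of all genes were above 0 (medians 0.04 and -0.07). Interferon-induced genes were above 0 in 8 of 9 without P-G3 and 9 of 10 with it (medians 0.95 and 0.70), cAMP and CREB targets in 10 of 15 and 10 of 13 (0.82 and 0.65), and TGF-beta and BMP pathway genes in 18 of 23 and 16 of 21 (0.72 and 0.53). CCN and YAP target genes were above 0 in 9 of 11 and 8 of 11 (0.87 and 0.85). Of the 14 osteochondral genes 4 were measured, and all 4 were above 0 in both libraries (1.56 and 0.95). Over Fabp4-intermediate cells the list was above 0 in 4 of 4 without P-G3 and 2 of 4 with it. In untreated members over day 0 cells it was above 0 in 1 of 4 (-0.83). The classes were divided by Fabp4, so these values describe and test nothing.

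In untreated cells under the Fabp4 limit, the 13 mitochondrially encoded mRNAs were all higher on day 3 than on day 0 (median 0.86, 0.72 under TMM scaling). Glycolysis genes were lower in 14 of 17 (-0.30 and -0.44), where 44.6% of all genes were lower (median 0.07, and -0.06 under TMM scaling). A cell's mitochondrially encoded share of UMIs, which the rule also limits, was 3.39% on day 0 and 6.58% on day 3 at the median. The 13 mRNAs are therefore not 13 separate results. With P-G3 the members with most Fabp4 had more mRNA of cholesterol synthesis than those with least, in 21 of 21 genes (0.79), whereas without it 9 of 21 were higher (-0.02). Of all genes 57.9% were higher with P-G3 and 46.6% without it. The division genes of the rule were higher in 10 of 10 with P-G3 (0.93) and in 4 of 10 without it (-0.02), and their part was not tested. Lysosomal genes were lower in 23 of 26 in the highest Fabp4 range in each library (-0.29 and -0.39), and chemokines and cytokines in 8 of 10 and 8 of 9 (-0.82 and -1.61). Of all genes 53.4% were lower in that range without P-G3 and 42.1% with it. The difference between the libraries was not tested.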
